A study of Mus musculus with 2 samples.

Results

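The Ifitm genes of the chromosome 7 cluster were examined in primordial germ cells (PGCs), from which oocytes and sperm derive. The 3 genes, Ifitm1, Ifitm2 and Ifitm3, were chosen by their symbols among the 18877 genes of the expression table. PGCs had been isolated from untreated C57BL6 embryos at embryonic day 9.5 (E9.5) by antibody selection for SSEA1, a carbohydrate antigen of the cell surface. The methods name either flow sorting with antibodies to both CD61 and SSEA1 or magnetic selection with SSEA1 alone, and which was used for these libraries is not given there. There was 1 group of 2 libraries, numbered replicate 1 and replicate 2 by their titles, with no control group. The methods describe the embryos as female. Both libraries held reads of the Y-linked gene Ddx3y, 362 in replicate 1 and 93 in replicate 2. How many embryos were pooled is not given in the sources used here.

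Ifitm genes encode small membrane proteins with a CD225 domain, first known as interferon-induced proteins that hinder the entry of viruses at cellular membranes. In the mouse embryo they are also known as the Fragilis family. Ifitm3 (Fragilis) marks epiblast cells that can become PGCs in response to BMP signals, and Ifitm1 (Fragilis2) is a further marker of nascent PGCs. Mice that lack the cluster still form germ cells.

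In the GENCODE M21 annotation of GRCm38 (mm10), the members span 55.9 kb of chromosome 7, from 140954837 to 141010770. Ifitm2 (ENSMUSG00000060591, 140954837 to 140955987, minus strand) is followed by Ifitm1 (ENSMUSG00000025491, 140967221 to 140969825, plus strand) and Ifitm3 (ENSMUSG00000025492, 141009586 to 141010770, minus strand). Their open reading frames hold 106 codons in Ifitm1, 144 in Ifitm2 and 137 in Ifitm3. Aligned coding sequences were 82.1% identical between Ifitm1 and Ifitm2, 82.1% between Ifitm1 and Ifitm3, and 80.9% between Ifitm2 and Ifitm3. Ifitm5 and Ifitm6, which flank the members, were more distant, at 59.6% to 68.8% identity with them.

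The promoters are shown because interferon response elements are the best known control sequences of this family. The letters are from RefSeq on GRCm38.p6, 5′ to 3′ on the gene's strand, and stop before an annotated first exon. The window of Ifitm1 ends at the first exon of its shortest transcript and lies in an intron of its longest. Capitals mark the core of the interferon-stimulated response element, which is GAAA followed by NN (any bases) and GAAA, and the GC box, GGGCGG, each searched on both strands. The windows are chr7:140967826-140968027 for Ifitm1, chr7:140955988-140956211 for Ifitm2 and chr7:141010771-141010994 for Ifitm3.
Ifitm1: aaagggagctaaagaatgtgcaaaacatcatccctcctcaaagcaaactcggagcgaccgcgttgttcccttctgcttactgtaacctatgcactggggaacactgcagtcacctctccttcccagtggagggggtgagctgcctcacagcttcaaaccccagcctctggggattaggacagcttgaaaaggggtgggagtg
Ifitm2: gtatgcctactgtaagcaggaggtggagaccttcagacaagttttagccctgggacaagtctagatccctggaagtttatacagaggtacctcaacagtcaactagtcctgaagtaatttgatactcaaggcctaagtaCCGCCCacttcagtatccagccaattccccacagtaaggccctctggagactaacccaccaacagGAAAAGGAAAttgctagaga
Ifitm3: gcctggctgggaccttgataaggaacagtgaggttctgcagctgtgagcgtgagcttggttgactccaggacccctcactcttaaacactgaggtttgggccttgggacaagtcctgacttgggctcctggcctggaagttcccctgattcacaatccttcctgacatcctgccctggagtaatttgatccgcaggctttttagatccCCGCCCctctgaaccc

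The response element core was found at 46 bases before the RefSeq start of Ifitm2. In Ifitm3 it was found at 2 and at 19 bases after the start, inside the first exon (chr7:141010716-141010742, minus strand, cores in capitals).
Ifitm3 first exon: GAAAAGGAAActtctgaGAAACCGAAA

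The window of Ifitm1 from 250 bases before to 50 bases after its RefSeq start held no match. Of 32851 such windows of all genes, 3.44% held the core. The gamma-activated site TTCNNNGAA was matched in Ifitm3 at 13 bases after the start, overlapping a response element core, and in no other member, while 8.30% of all windows held it. The GC box was matched in Ifitm2 at 111 and at 24 bases before the start, the latter inside the annotated first exon and not printed. It was matched in Ifitm3 at 42 bases before the start, and in 35.7% of all windows. Of the other letters searched, the TATA box TATAAA was matched in Ifitm2 only among the members (13.6% of all windows). That match lay on the antisense strand, 175 bases before the start. CCAAT was also matched in Ifitm2 only, on the sense strand 91 bases before the start (37.4% of all windows). These are matches of letters, and no binding was measured.

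All 3 Ifitm genes were among the most abundant transcripts in the E9.5 PGC libraries. Values are in TPM, a transcript abundance per base of gene length that the authors scaled to a fixed total in each library. Reads behind each value were recovered from the table as whole numbers, with 15912469 reads in all in replicate 1 and 5458687 in replicate 2. Ifitm1 was at 2002 TPM in replicate 1 and 1905 TPM in replicate 2 (mean 1953 ± 68.4, SD, n = 2). It rested on 20816 and 6967 reads, with exact Poisson 95% intervals of 1975 to 2029 and 1860 to 1950 TPM. It ranked 68th and 76th of all genes by TPM. Ifitm3 was at 1518 and 1572 TPM (mean 1545 ± 37.8), from 9786 and 3563 reads (intervals 1488 to 1549 and 1521 to 1624 TPM). It ranked 97th and 95th. Ifitm2 was at 987 and 772 TPM (mean 880 ± 152), from 6147 and 1690 reads (intervals 963 to 1012 and 735 to 809 TPM), at rank 173 and 226. Intervals cover counting error only. Each member was thus within the highest 1.2% of genes in both libraries. A gene at 1 TPM or more in each library was counted as detected. All 3 members were detected, as were 60.0% of all genes. Together they held 0.451% of TPM and 0.231% of recovered reads in replicate 1, and 0.425% and 0.224% in replicate 2.

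**Figure D1:**
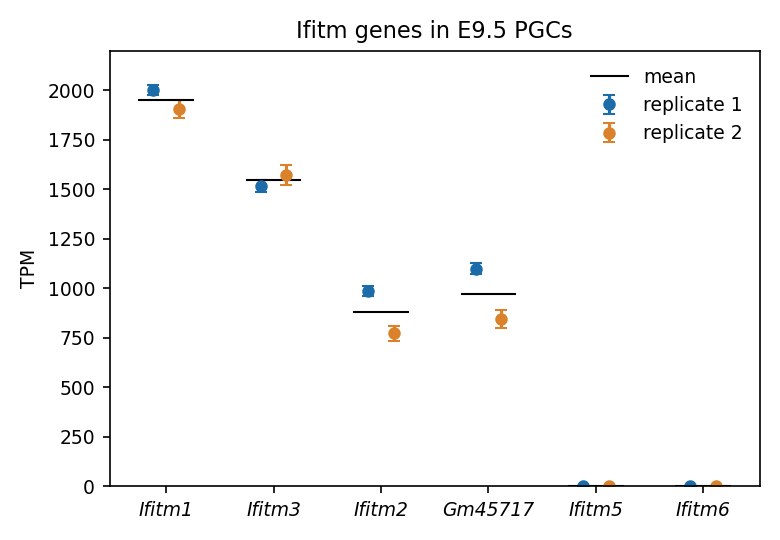
TPM of the Ifitm genes of the cluster and of the overlapping gene Gm45717 in each library, with exact Poisson 95% intervals (bars) and the mean of both replicates (lines). Ifitm1 is highest and Ifitm2 lowest of the members in both libraries, and Ifitm5 and Ifitm6 lie at the baseline.

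The order Ifitm1, Ifitm3, Ifitm2 was found in both libraries, and the counting intervals of neighbours in this order did not overlap in either. Ifitm1 exceeded Ifitm3 by 1.32-fold in replicate 1 and 1.21-fold in replicate 2 in TPM (mean log2 ratio 0.34 ± 0.0859, SD, n = 2). It exceeded Ifitm2 by 2.03-fold and 2.47-fold (1.16 ± 0.201). Ifitm3 exceeded Ifitm2 by 1.54-fold and 2.04-fold (0.82 ± 0.287). With 2 libraries no permutation test of this order can reach 0.05, and none was made.

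The size of the lead of Ifitm1 depended on the gene length. The deposited values use the summed exons of all annotated transcripts, which are 1094 bases for Ifitm1, 655 for Ifitm2 and 678 for Ifitm3. Ifitm2 and Ifitm3 each have 1 annotated transcript. Ifitm1 has 3, of 560, 736 and 882 bases, which differ in their first exons and share 536 bases, so that each is shorter than the length used. Divided by the longest of them, Ifitm1 would be at 2423 ± 84.9 TPM, and divided by the shortest at 3816 ± 134 TPM (SD, n = 2), with no rescaling of the other genes. Reads per base of the longest transcript gave a ratio of Ifitm1 to Ifitm3 of 1.64 and 1.5 in the 2 libraries, and those of the shortest gave 2.58 and 2.37. Counts alone gave 2.13 and 1.96. The order of the members was the same on every one of these scales, but these scales could only raise Ifitm1 against the others. They left the ratio of Ifitm3 to Ifitm2 unchanged or slightly higher, so they did not test the order. That of Ifitm3 and Ifitm2 also rests on how overlapping reads were counted. Which of these transcripts PGCs use was not measured.

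**Figure D2:**
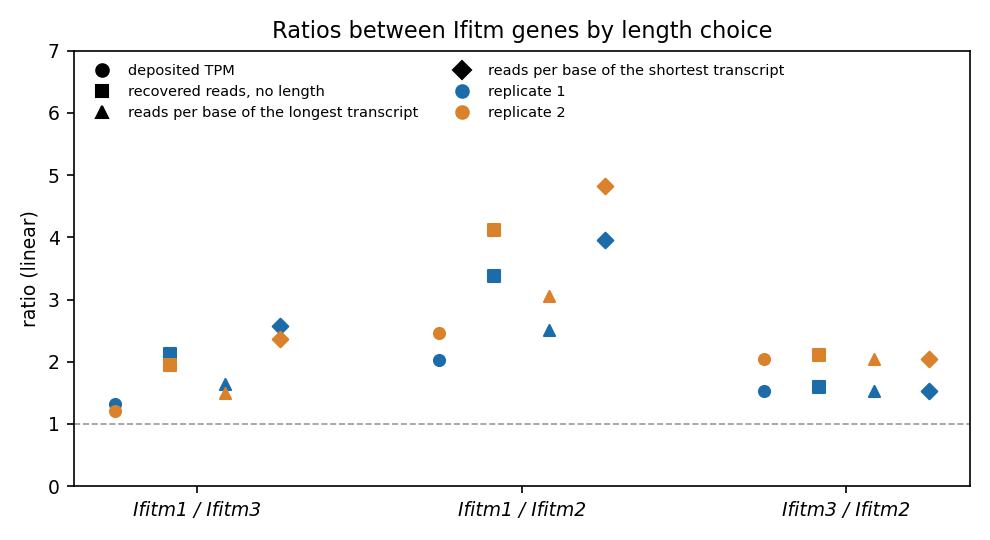
Ratios between the members in each library on a linear axis, from the deposited TPM, from recovered reads, and from reads per base of the longest or shortest annotated transcript. Ratios that involve Ifitm1 move with the length chosen, from 1.21 to 2.58 against Ifitm3. That of Ifitm3 to Ifitm2, each with 1 annotated transcript, lies between 1.54 and 2.11, and all ratios lie above 1.

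Most exonic bases of an overlapping gene, Gm45717, belong to Ifitm2, and both were listed at a high level. Gm45717 (ENSMUSG00000110104, 140949222 to 140955937, minus strand) is annotated as a protein-coding transcript that joins the first exon of Ifitm2 to the last exon of Ifitm5. Of its 495 exonic bases, 268 lie in Ifitm2 and 227 in Ifitm5, and 0 are its own. It was listed at 1100 and 845 TPM, from 5174 and 1398 reads, which is 84.2% and 82.7% of the reads of Ifitm2. Ifitm5 had 13 reads in replicate 1 and 0 in replicate 2. In replicate 2, no read was therefore assigned to Ifitm5, in whose last exon the second exon of Gm45717 lies. The table gave reads to other genes of this kind as well: of 432 genes without an exonic base of their own on their strand, 335 had reads in at least 1 library. Ifitm2 held 973 and 292 reads more than Gm45717. How a read in both genes was counted is not given in the sources used here. Among 302 pairs in which the exons of 1 gene lie wholly within another gene of its strand, the inner gene had reads in 219 pairs in replicate 1 and 183 in replicate 2. It exceeded its host in 0 of them in either library, and its reads were 2.51% and 3.33% of those of the host in the median. An inner gene cannot exceed its host where shared reads are counted in full for each gene, nor where they are divided evenly. That no inner gene exceeded its host therefore cannot tell these ways of counting apart. Had reads been divided between the genes, those of Gm45717 would be added to Ifitm2. Ifitm3 would then be at 0.835-fold of Ifitm2 in replicate 1 and 1.11-fold in replicate 2 per base, and Ifitm1 at 1.10-fold and 1.35-fold. The order of Ifitm3 and Ifitm2 therefore depended on reads not having been divided. Whether a transcript joining both genes exists in PGCs was not tested. Gm45717 is not an independent measurement of the cluster.

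**Figure D3:**
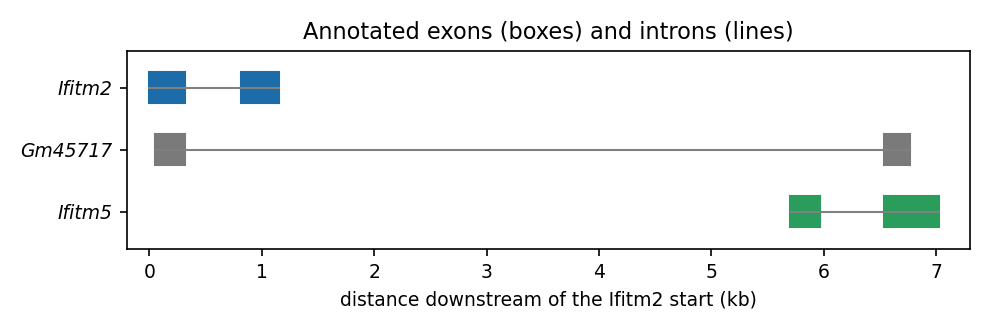
Annotated exons of Ifitm2, Gm45717 and Ifitm5 by distance from the Ifitm2 start in the direction of transcription. Both exons of Gm45717 fall within exons of the other genes, the first in Ifitm2 and the second in Ifitm5.

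Sequence shared between the members was short relative to the reads, which the methods give as paired 150-base reads. Windows of annotated transcripts were searched exactly on both strands. Of windows of 50 bases, 15 of 1056 in Ifitm1, 20 of 606 in Ifitm2 and 35 of 629 in Ifitm3 also occurred in another member. At 75, 100 and 150 bases there were 0 such windows. Ifitm1 and Ifitm3 shared no window of 100 or 150 bases with any annotated gene. Ifitm2 shared 194 of 556 windows of 100 bases (34.9%) and 119 of 506 windows of 150 bases (23.5%). At 150 bases all of these were in Gm45717. At 100 bases, 169 were in Gm45717 and 26 in the processed pseudogenes Gm11951 or Gm8865, where a window can lie in both. Gm11951 had 0 reads in replicate 1 and 2 in replicate 2, and Gm8865 had 0 in both. Gm7676, a processed pseudogene that shares shorter windows with Ifitm1 and Ifitm3, had 9 and 4 reads. How reads that align to several places were treated is not given in the sources used here.

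Ifitm2 varied most between the libraries. On the log2(TPM + 1) scale, replicate 2 minus replicate 1 was -0.07 for Ifitm1, 0.05 for Ifitm3 and -0.35 for Ifitm2. Intervals of the libraries overlapped for Ifitm3 and did not overlap for Ifitm1 or Ifitm2. Among 803 genes with at least 5000 recovered reads, the SD of this difference was 0.18 and 5.60% of genes differed by as much as Ifitm2, compared with 67.4% for Ifitm1 and 76.3% for Ifitm3. No member differed more than 2-fold (0 of 3), and 10.2% of all genes did. The overlapping Gm45717 was lower in replicate 2 as well. Macrophage markers summed to 20.6 TPM in replicate 1 and 10.3 in replicate 2, and replicate 2 was the shallower library. The part of either in the difference of Ifitm2 was not tested.

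Among the genes analysed in this neighbourhood, high expression was limited to the 3 members and Gm45717. Ifitm5, which is known from bone, was at 1.79 TPM in replicate 1 and listed at 0 in replicate 2, where 0 reads allow up to 1.17 TPM. Ifitm6 was at 1.28 TPM from 11 reads in replicate 1 and at 0 in replicate 2, which allows up to 0.992 TPM. Besides the members and Gm45717, 26 genes of the table lay within 250 kb of the span of the members. Of these, 16 were detected, a share near the 60.0% of all genes. The median log2(TPM + 1) of these neighbours was 1.68 and 2.34, where that of all genes was 1.89 and 1.85. The highest was the processed pseudogene Gm5905 at 67.2 ± 4.54 TPM (SD, n = 2). Ifitm2, the lowest member, exceeded it by 14-fold in replicate 1 and 12.1-fold in replicate 2. The pseudogene Gm15542 was at 52.9 ± 1.16 TPM and Syce1, a component of the synaptonemal complex, at 31.3 ± 6.54 TPM.

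The other neighbours lay lower. Psmd13, a proteasome subunit, was at 9.16 ± 2.83 TPM, Rnh1, a ribonuclease inhibitor, at 8.50 ± 3.87 and Ptdss2, a phosphatidylserine synthase, at 11 ± 1.17 TPM. Above 1 TPM on average were also Gm45785 (7.27 ± 4.71), Hras (5.29 ± 1.47), Urah (4.90 ± 2.55), C330022C24Rik (4.68 ± 1.23), Rassf7 (4.19 ± 0.749), Pgghg (3.89 ± 2.08), Ric8a (3.51 ± 0.0105), the mitochondrial deacetylase Sirt3 (3.13 ± 1.94), Bet1l (2.45 ± 1.67), Sigirr (1.64 ± 0.514) and B4galnt4 (1.14 ± 0.287 TPM). Cox8b, Ano9, Lmntd2, Lrrc56, Cyp2e1 and BC024386 were below 1 TPM on average, and Gm17387 had 0 reads in both libraries, which for its 72 exonic bases allows up to 4.38 and 12.5 TPM.

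**Figure D4:**
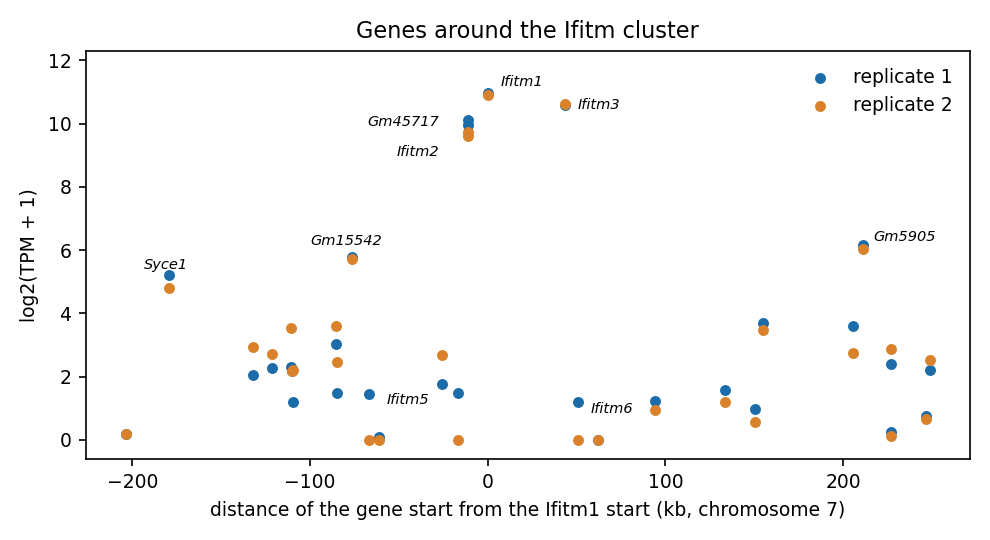
Expression in each library, as log2(TPM + 1), of the genes within 250 kb of the members, by the distance of their start from that of Ifitm1. The members and Gm45717 lie between 9.59 and 10.97, and every other gene shown lies at 6.16 or below.

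Other genes with a CD225 domain were near the limit of detection. Of 11 listed, 4 were in the table and 0 were detected, where 60.0% of all genes were. Tmem91 was at 0.445 and 0.928 TPM, and Syndig1, a synaptic membrane protein, at 0.171 and 0 TPM. Ifitm7, Ifitm10, Prrt1, Prrt2, Syndig1l, Tmem233 and Trarg1 were not analysed here.

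The Ifitm genes stood apart in level from other genes that interferon induces. Of 35 such genes listed, 14 were in the table and 6 were detected, where 60.0% of all genes were. Their median log2(TPM + 1) was 1.13 in replicate 1 and 1.0 in replicate 2, below the median of all genes. The highest was Bst2 (tetherin), which holds back budding viruses, at 17.9 and 19.5 TPM. Ifitm1 exceeded it by 112-fold and 97.5-fold, Ifitm3 by 84.6-fold and 80.4-fold, and Ifitm2 by 55.0-fold and 39.5-fold. The ubiquitin ligase Trim25 followed at 5.91 ± 0.682 TPM (SD, n = 2), then the RNA sensor Ddx58 (RIG-I) at 3.0 ± 1.85, Rnf213 at 2.80 ± 0.00770 and the kinase Eif2ak2 (PKR) at 1.88 ± 0.325 TPM. The lowest were Ifit2, Gbp2 and Rtp4, each listed at 0 in replicate 1, Ifi35, listed at 0 in replicate 2, and the RNA editing enzyme Adar at 0.477 ± 0.107 TPM. Ifit2 had 11 reads in replicate 2, Gbp2 had 8 and Rtp4 had 7, whereas Ifi35 had 17 reads in replicate 1. Genes of this list without a row in the table, Isg15 and Mx1 among them, were not analysed here.

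Interferon receptors and their signalling molecules were also low in level. Of 11 listed, 10 were in the table and 5 were detected, a share near the 60.0% of all genes. The median was 1.38 and 1.12, where that of all genes was 1.89 and 1.85. Of the type I receptor, Ifnar1 was at 2.56 and 2.09 TPM and Ifnar2 at 1.11 and 0.270 TPM. Of the type II receptor, Ifngr1 was at 4.58 and 2.0 TPM and Ifngr2 at 0.730 and 0.181 TPM. Replicate 2 held 3 reads of Ifnar2 and 2 of Ifngr2. Of the lambda receptor, Ifnlr1 was at 0.871 ± 0.725 and Il10rb at 0.132 ± 0.147 TPM. The kinases were at 5.56 ± 0.601 for Jak1, 2.28 ± 0.619 for Jak2 and 1.80 ± 0.0262 TPM for Tyk2, and the transcription factor Stat2 was at 0.913 ± 0.291 TPM. The interferon genes Ifnb1, Ifng, Ifne and Ifnk were not analysed here.

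Of 9 interferon regulatory factors, 6 were in the table and all 6 were detected, beside 60.0% of all genes. The list median was 2.70 and 2.66. Irf5 was highest at 26.4 and 35.4 TPM, which was 37.3-fold and 21.8-fold below Ifitm2. Irf3 was at 7.82 ± 0.486, Irf1 at 7.27 ± 0.252 and Irf9, the DNA-binding part of the ISGF3 complex, at 3.98 ± 0.366 TPM. The interferon-inducible Irf7 was lowest at 1.32 ± 0.0691 TPM.

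Enzymes and partners known to act on Ifitm proteins covered a wide range. All 10 were in the table, and 7 were detected, beside 60.0% of all genes. The membrane contact protein Vapa was highest at 344 ± 28.5 TPM (SD, n = 2), 2.71-fold and 2.38-fold below Ifitm2, followed by the tetraspanin Cd9 at 132 ± 20.7 TPM. The ubiquitin ligase Nedd4 was at 35.9 ± 0.595 TPM and the palmitoyltransferase Zdhhc20 at 23.6 ± 2.36 TPM. Vcp, which extracts ubiquitinated proteins from membranes, was at 13.1 ± 3.77 TPM, and the tetraspanin Cd81 at 6.50 and 2.6 TPM. The protease Zmpste24 was at 2.19 ± 0.0385 TPM. The depalmitoylase Abhd16a (0.825 ± 0.773), the methyltransferase Setd7 (0.925 ± 0.370) and the kinase Fyn (0.661 ± 0.423 TPM) were below 1 TPM on average.

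BMP signalling, through which Ifitm3 is induced as PGCs form, was represented by 12 genes. Of these, 11 were detected, beside 60.0% of all genes. The list median was 2.99 and 2.90. The target genes Id3, at 65.8 ± 2.41 TPM, and Id1, at 30.3 ± 2.33 TPM, were highest, and Id2 was at 10.4 ± 2.86 TPM. The receptors ranged from Bmpr1a at 13.7 ± 2.09 and Acvr2b at 10.5 ± 0.911 TPM to Acvr2a at 4.93 ± 0.0931, Acvr1 at 2.64 ± 0.235 and Bmpr2 at 1.09 ± 0.0615 TPM. Smad4 was at 16.5 ± 1.97, Smad1 at 3.75 ± 0.778 and Smad5 at 2.52 ± 1.39 TPM, and Smad9 had 4 reads in replicate 1 and 0 in replicate 2.

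**Figure D5:**
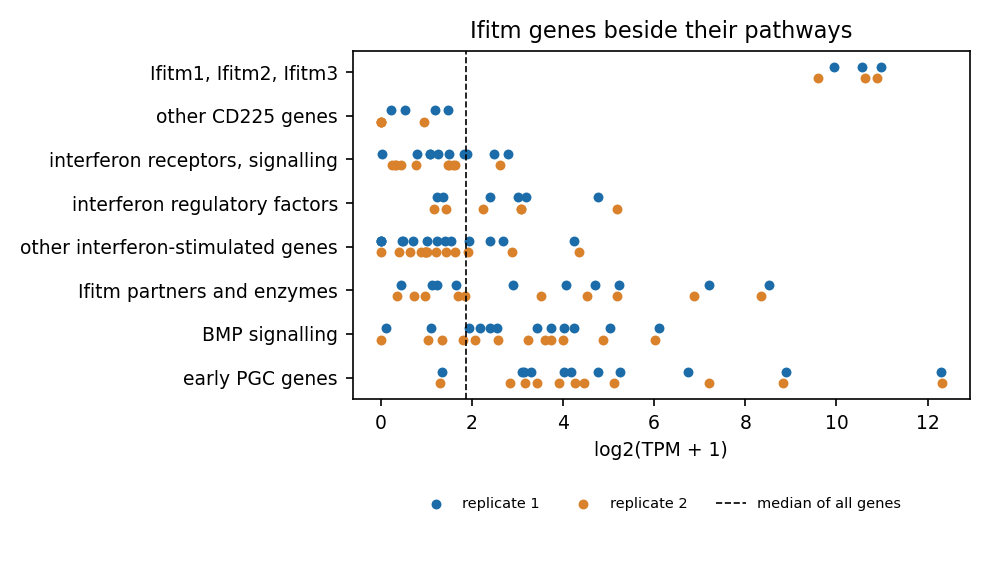
Levels in each library, as log2(TPM + 1), of the members and of the genes in each list (1 point per gene and library), with the median of all genes as a dashed line. The members lie from 9.59 to 10.97, above every gene of the interferon lists and below Dppa3 among the early PGC genes.

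Among 11 early PGC genes, all were detected, beside 60.0% of all genes, and their median was 4.17 and 4.26. Only Dppa3 (Stella), at 5013 and 5075 TPM, was above the members in this list. Nanos3, an RNA-binding protein that keeps PGCs alive, was the next at 463 ± 14.3 TPM (SD, n = 2). The transcription factors that specify PGCs were far lower, with Tfap2c at 17.6 ± 0.827, Prdm14 at 14.7 ± 0.922 and Prdm1 (Blimp1) at 6.98 ± 1.22 TPM. The pluripotency factor Sox2 was at 126 ± 28.8 TPM, Nanog at 23.7 ± 3.84 and Pou5f1 at 1.5 ± 0.0570 TPM, the last from 33 and 11 reads. Dnd1 was at 35.3 ± 2.39, the phosphatase Alpl at 8.68 ± 1.47 and the receptor Kit at 8.40 ± 0.627 TPM.

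Ifitm genes are also expressed by other embryonic cells, so markers of those were summed. Erythroid markers (7 of 9 in the table) summed to 4002 TPM in replicate 1 and 3780 in replicate 2. The 11 early PGC genes summed to 5713 and 5786 TPM, of which Dppa3 held 5013 and 5075 TPM. Endothelial markers (5 of 7) summed to 12.9 and 11 TPM, and mesenchyme markers (5 of 7) to 2.37 and 3.95 TPM with Lum at 0 in both. The macrophage sums above covered 5 of 8 genes. Gut endoderm markers (4 of 6) summed to 161 and 140 TPM. This list includes Epcam and Cldn6, which PGCs also express, while Foxa1 was at 0 in both libraries and Foxa2 had 0 and 4 reads. The share of Ifitm transcripts that came from such cells was not tested, and the number of expressing cells and the RNA per cell cannot be told apart in bulk libraries.

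Genes at the most similar level were found by their distance in log2(TPM + 1) over both libraries. Nearest to Ifitm1 were the proteasome subunit Psmb1 at 1946 and 1931 TPM (distance 0.04), the translation elongation factor Eef1a1 at 1936 and 1969 TPM (0.07) and the pseudogene Gm9794 (0.09). Nearest to Ifitm3 were the pseudogene Tma7-ps (0.06), the nucleotide pyrophosphatase Dctpp1 at 1450 and 1596 TPM (0.07) and the respiratory chain subunit Cox4i1 at 1448 and 1518 TPM (0.09). Nearest to Ifitm2 were Gm44466 (0.14), the pseudogene Gm6563 (0.18) and the ribosomal protein gene Rplp0 at 868 and 791 TPM (0.19). With 1 group of 2 libraries, this likeness is one of level and does not describe a pattern across conditions.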

How the data were processed

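RNA-seq was performed on 2 libraries of E9.5 PGCs. Per the methods, the authors aligned reads to mm10 with HISAT2 and counted them with featureCounts, whereas the submitters' processing notes also list Bowtie2, RSEM, DESeq2 and R 3.4.2 without a role. The authors deposited TPM for each gene, which were used as given. The labels name a NEBNext library kit and the methods name Smart-seq2, so the chemistry is uncertain. Versions of aligner and counter, the annotation, and the handling of strand and of multi-mapping reads are not given in the sources used here.

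Symbols were matched to GENCODE M21 (18748 of 18877 to a single gene). TPM multiplied by summed exon length gave whole multiples of 1 amount per library, taken as 1 read. Of values under 50 reads, 96.7% and 95.8% lay within 0.02 of a whole number. On simulated counts for 18748 genes, 100% were recovered in both libraries. These were drawn as whole reads and used the same exon lengths, so they checked the calculation only. They could not test the lengths, or whether the real counts are whole. The limit of a zero was set at 3 reads. Values were analysed as log2(TPM + 1), which understates differences between low genes. With 1 group no test was made, and the spread is that between 2 libraries, described by the study as biological replicates, with the embryos behind each not given. Order was given where both libraries showed it and exact Poisson 95% intervals did not overlap.

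Members and gene lists were chosen with earlier results of these data known. The named genes were the members, all genes of lists of 12 or fewer, the 5 highest and 5 lowest of longer lists, the genes within 250 kb, and the 3 genes nearest in level to each member. Some listed genes are not reported here by name. Gm45717 and the pseudogenes that share sequence with the members were added for their overlap. The alternatives were a pseudocount of 0.1, a total without genes under 200 exonic bases, ranks among expressed genes, reads without length, scaling by the median ratio, other detection thresholds, members above 1 TPM and leaving out each replicate. Transcript lengths and the addition of the reads of Gm45717 to Ifitm2 were added after seeing the data. Coding sequences were aligned globally with Biopython 1.88. Analyses used Python 3.11.15, numpy 2.4.6, pandas 2.3.3, scipy 1.17.1 and matplotlib 3.10.9.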

Additional observations from a re-analysis of the deposited data

How the results depend on the processing

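No paired analysis was possible because there was 1 group. Of 102 alternative values for 26 results, 76 stayed within the spread used, 25 moved and 1 changed direction. For levels, ranks, ratios and list medians, the spread was the SD between the libraries. For replicate differences it was the SD across genes, 0.18, and counts were called the same within 1.5 times. With 2 libraries, leaving out 1 always keeps a level, rank, ratio or list median within its SD. Member ranks also could not change among genes averaging 1 TPM or more. Such values are no sign of stability. With the reads of Gm45717 added to Ifitm2, the log2 ratio of Ifitm3 to Ifitm2 turned to -0.052 and that of Ifitm1 to Ifitm2 was 0.29. Without genes under 200 exonic bases in the total, Ifitm1 was at 11.15 and Ifitm3 at 10.81 on the log2(TPM + 1) scale. The log2 ratio of Ifitm1 to Ifitm3 was 1.03 from reads without length, and 1.30 and 0.65 per base of the shortest and longest transcript, while that of Ifitm1 to Ifitm2 was 1.90, 2.13 and 1.47. These 2 transcript lengths and the addition of Gm45717 were chosen after seeing the data. A pseudocount of 0.1 gave list medians of -1.76 (CD225 genes), 0.53 (interferon receptors and signalling), 2.45 (interferon regulatory factors), 0.25 (other interferon-stimulated genes), 2.76 (BMP signalling) and 4.15 (early PGC genes). Lists cut to genes averaging 1 TPM or more gave 1.74 (receptors and signalling), 1.78 (interferon-stimulated genes), 4.62 (enzymes and partners) and 3.33 (BMP signalling). A threshold of 5 TPM left 1 detected receptor or signalling gene, 3 regulatory factors, 2 interferon-stimulated genes and 6 BMP genes. Leaving out a replicate gave 0 to 2 detected CD225 genes and 5 to 8 receptor and signalling genes, the higher counts being those without replicate 2. Counting error was small for the members, each with at least 1690 reads, and large for genes with few reads.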
